A study of Mus musculus with 6 samples.

Results

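Voltage-gated calcium channels are built around a pore subunit and carry auxiliary subunits that set how many channels reach the membrane and how they open. The genes described here are 7 genes for such auxiliary subunits: the beta subunit genes Cacnb1, Cacnb2, Cacnb3 and Cacnb4, and the alpha-2-delta subunit genes Cacna2d1, Cacna2d2 and Cacna2d3. They were chosen by name, and each was read from the probe set of highest mean signal among those whose annotation names that gene alone. Of the 7 genes, 6 had such a probe set, out of 22180 genes measured this way. Cacnb3 was named by no single-gene probe set in the annotation used here and has no value below. All 6 measured genes had mean signals above 4.74, the median of all probe sets. Besides a given subunit gene, so did 12919 of the 22180 genes.

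The study compared hippocampus of male mice carrying a deletion of Trpc4 with hippocampus of wild-type males, both on the C57BL/6J background and taken at postnatal day 56. Trpc4 encodes a receptor-operated cation channel that lets calcium into neurons. Total RNA of 3 wild-type and 3 knockout samples was hybridised to Affymetrix expression arrays, 1 array a sample. The labels give no further treatment, do not say which part of Trpc4 was removed or whether the deletion reaches every cell, and do not state that each sample is a separate animal. If they are not, the p-values cover technical spread only. All signals are on the log2 scale, and all differences are knockout minus wild type.

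Beta subunits sit on the cytoplasmic side of the channel, where they bind a linker of the pore subunit, aid its delivery to the membrane and shape its gating. Alpha-2-delta subunits are extracellular proteins anchored to the membrane that raise the number of channels at the surface and at presynaptic terminals, and Cacna2d1 and Cacna2d2 encode the forms that bind gabapentin and pregabalin. In neurons both kinds serve the high-voltage-activated channels that trigger transmitter release and couple activity to transcription. Low-voltage-activated (T-type) channels can work without them.

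The start regions of these genes are shown for 2 genes, Cacnb2 because its difference was the largest of the 6 and Cacna2d1 because its groups did not overlap, though its difference was small. The windows are from RefSeq (GRCm38.p6), run from 250 bases before to 50 bases after an annotated start, and are written 5′ to 3′ along the gene's strand. Capitals mark the GC box GGGCGG on either strand, which reads CCGCCC on the other one. TATAAA and the cyclic AMP response element TGACGTCA were searched on both strands too, and neither was found in these 3 windows.

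Cacnb2, first start, chr2:14604056-14604355, plus strand: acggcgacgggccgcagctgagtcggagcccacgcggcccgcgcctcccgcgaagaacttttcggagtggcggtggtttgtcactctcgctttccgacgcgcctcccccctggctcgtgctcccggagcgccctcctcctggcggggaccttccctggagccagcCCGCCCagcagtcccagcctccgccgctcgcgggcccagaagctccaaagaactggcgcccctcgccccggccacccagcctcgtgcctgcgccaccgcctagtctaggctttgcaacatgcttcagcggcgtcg
Cacnb2, second start, chr2:14823842-14824141, plus strand: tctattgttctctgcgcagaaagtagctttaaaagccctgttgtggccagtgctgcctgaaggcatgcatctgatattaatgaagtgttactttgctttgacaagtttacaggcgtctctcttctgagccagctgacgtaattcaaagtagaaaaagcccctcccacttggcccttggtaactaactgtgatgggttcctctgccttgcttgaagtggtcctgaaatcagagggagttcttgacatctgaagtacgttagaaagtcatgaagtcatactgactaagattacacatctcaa
Cacna2d1, chr5:15934441-15934740, plus strand: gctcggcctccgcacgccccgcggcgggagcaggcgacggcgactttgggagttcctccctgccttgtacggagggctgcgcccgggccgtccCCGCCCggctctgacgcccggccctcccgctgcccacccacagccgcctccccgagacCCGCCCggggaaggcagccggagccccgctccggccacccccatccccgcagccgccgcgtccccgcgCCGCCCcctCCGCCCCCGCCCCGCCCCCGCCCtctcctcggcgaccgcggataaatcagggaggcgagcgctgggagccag

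The Cacna2d1 window held 7 GC boxes in 80.0% G and C, and the first Cacnb2 window held 1 in 71.7%. The second Cacnb2 window, with 44.0% G and C, held none. All 7 genes matched the RefSeq table, with 12 windows in all because Cacnb1, Cacnb2, Cacnb3 and Cacnb4 have several annotated starts. Of these 12 windows, 8 held a GC box, where 35.7% of all 32841 windows of this length did, and each of the 7 genes had at least 1 such window. None of the 12 held TATAAA (13.6% of all windows) or TGACGTCA (1.79%). The genes lie on chromosomes 2 (Cacnb2 and Cacnb4), 5, 9, 11, 14 and 15, and none shares chromosome 3 with Trpc4. A match of letters is a description of the window, and the arrays do not tell which start was used.

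The Trpc4 signal itself was 8.06 to 8.23 on the wild-type arrays and 7.31 to 7.55 on the knockout arrays, so that the knockout mean stood at 61.5% of wild type. Where its probes lie relative to the deleted part is not known here. Array medians lay between 4.73 and 4.75, and Pearson's r between arrays across probe sets, which are not replicates, was 0.985 to 0.988. Over all 22180 genes limma called 0% of genes at an adjusted p of 0.05, with 1276 genes (5.75%) at an unadjusted p under 0.05. Trpc4 itself had a limma p of 8.87e-05 unadjusted and 0.738 adjusted, so the deleted gene was not called either. The groups did not overlap for 10.9% of genes, including 4.45% with all knockout arrays below all wild-type arrays. The median difference over all genes was 0.01, and 54.9% of genes were higher in knockout.

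None of the 6 measured auxiliary subunit genes passed the threshold, at an adjusted p over all genes (0%) or at an unadjusted p of 0.05 (5.75% of all genes). Of the 6, 4 had higher means in knockout and 2 lower, and their differences ran from -0.06 to 0.17 with a median of 0.05. The median size of the difference, without its sign, was 0.07 over the 6 genes and 0.08 over all genes. The intervals set the limits of what was measured. The upper 95% limits for the 6 genes ran from 0.11 (Cacna2d1) to 0.40 (Cacna2d2 and Cacnb2), and the lower limits from -0.33 (Cacna2d2) to -0.06 (Cacnb2). With 3 arrays a group, true shifts anywhere inside these intervals remain compatible with the values. The intervals are not limits of detection.

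**Figure D1:**
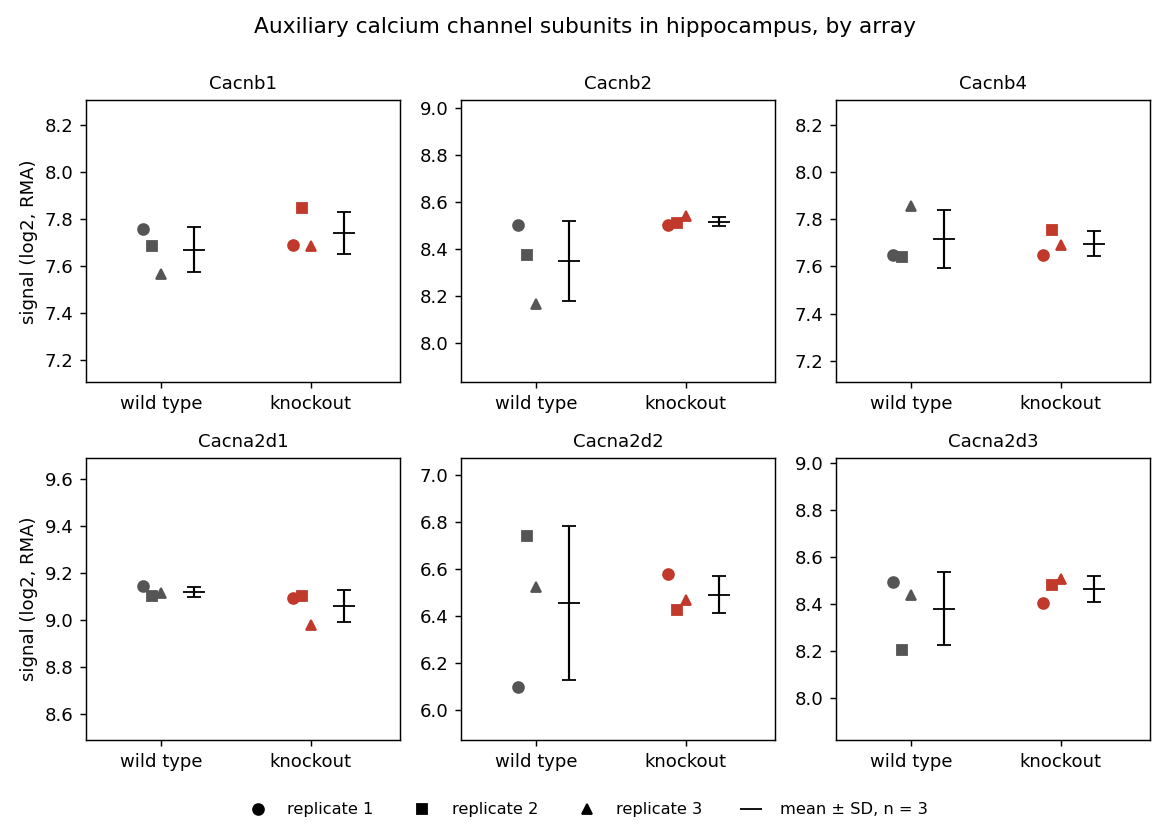
Log2 RMA signal of the 6 measured auxiliary subunit genes on each array (circle, square and triangle for replicates 1, 2 and 3), with the mean ± SD of 3 arrays beside each group. Every panel spans the same height in log2 units around its own centre, and Cacna2d2 shows the widest scatter in wild type and Cacnb2 the tightest knockout group.

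Among the beta subunit genes, Cacnb2, whose product is also the main beta subunit of heart muscle, had the largest difference. Its signals were 8.50, 8.38 and 8.17 in wild-type replicates 1 to 3, and 8.50, 8.51 and 8.54 in knockout. The knockout arrays lay close together, and wild-type replicate 1 lay within their range while the other two wild-type arrays lay below it, so that the groups overlapped. The wild-type mean was 8.35 ± 0.17 and the knockout mean 8.52 ± 0.02 (SD, n = 3 each, as for all means below). The difference of 0.17 (standard error 0.10, 95% interval -0.06 to 0.40) corresponds to 112% of the wild-type signal. Its limma adjusted p was 0.881, and the exact two-sided permutation p was 0.2, where 3 against 3 samples cannot give less than 0.1. Without wild-type replicate 3 the difference was 0.08, and without wild-type replicate 1 it was 0.24 (limma p 0.0384, unadjusted). In no setting run did the limma adjusted p of any of the 6 genes fall below 0.755.

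Cacnb1, a beta subunit gene of brain that is also the one used by skeletal muscle, had signals of 7.76, 7.68 and 7.57 in wild type and 7.69, 7.84 and 7.68 in knockout. Only knockout replicate 2 lay above every wild-type array. The means of 7.67 ± 0.10 and 7.74 ± 0.09 differed by 0.07 (standard error 0.09, interval -0.13 to 0.27, limma adjusted p 0.943), less than the spread within either group. It was 0.02 without knockout replicate 2 or wild-type replicate 3, and 0.11 without wild-type replicate 1. Cacnb4, whose loss causes the ataxia and seizures of the lethargic mouse, had signals of 7.65, 7.64 and 7.86 in wild type and 7.65, 7.75 and 7.69 in knockout. All 3 knockout arrays lay inside the wild-type range. The means were 7.72 ± 0.12 and 7.70 ± 0.05, a difference of -0.02 (standard error 0.09, interval -0.22 to 0.18, limma adjusted p 0.987). The interval for Cacnb4 in terms of signal ran from 85.7% to 114% of wild type.

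Cacnb2 and Cacnb4 were each measured by a second, dimmer probe set. The second Cacnb2 probe set had signals of 4.29, 4.52 and 4.42 in wild type and 4.46, 3.95 and 4.42 in knockout, a difference of -0.13 with an interval of -0.47 to 0.20. It lies below the median of all probe sets, and its sign is opposite to that of the brighter one, with both intervals covering 0. The second Cacnb4 probe set had signals of 5.03, 5.17 and 5.36 in wild type and 5.03, 4.82 and 4.99 in knockout. Wild-type replicate 1 lay marginally below knockout replicate 1, and all other wild-type values lay above all knockout values. The difference was -0.24 with an interval of -0.49 to 0.01, and in a fit over all single-gene probe sets its limma p was 0.0614 unadjusted and 0.856 adjusted. The probe sets of a gene can read different transcripts, and the positions of these probes were not used here. With both probe sets averaged, the difference was 0.02 for Cacnb2 and -0.13 for Cacnb4.

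**Figure D2:**
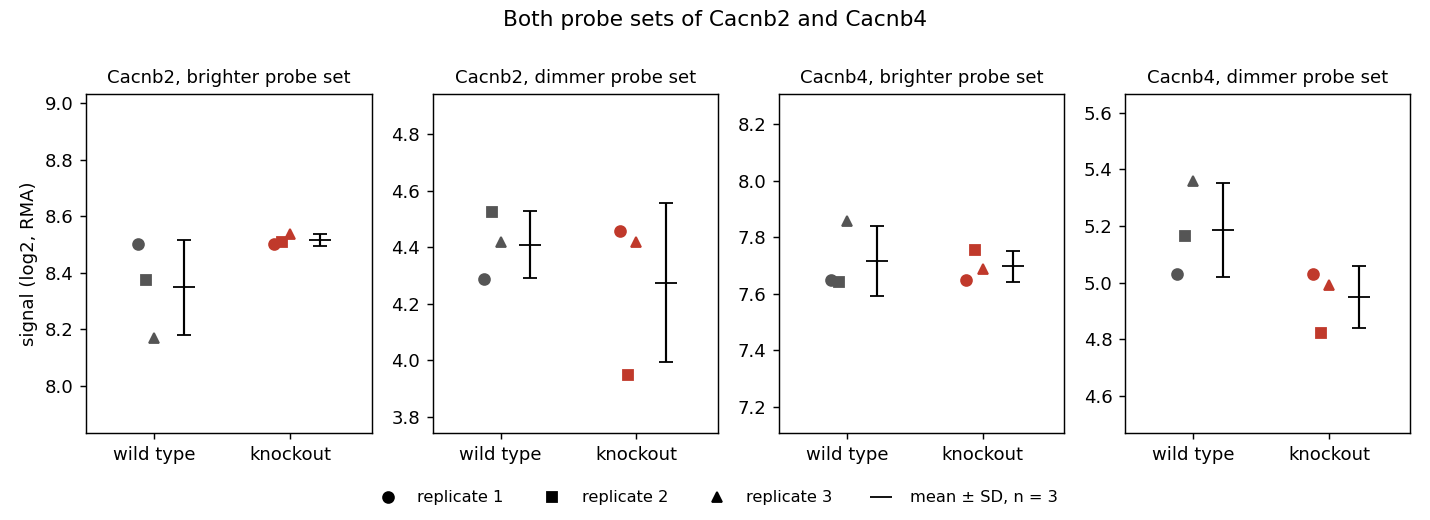
Log2 RMA signal of the 2 probe sets of Cacnb2 and of Cacnb4 on each array, with the mean ± SD of 3 arrays beside each group and panels of equal height in log2 units. The brighter Cacnb2 probe set has a difference of 0.17 and the dimmer one of -0.13, while those of Cacnb4 stand at -0.02 and -0.24.

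Among the alpha-2-delta genes, Cacna2d1 encodes the gabapentin receptor subunit that also binds thrombospondins. Its signals were 9.14, 9.10 and 9.11 in wild type and 9.10, 9.10 and 8.98 in knockout. Every knockout array lay below every wild-type array, but the gap between the nearest values of the groups was only 0.0029, and knockout replicate 3 alone stood clearly lower. This is 1 of 6 genes with groups that did not overlap, where 10.9% of all genes had such groups. The means of 9.12 ± 0.02 and 9.06 ± 0.07 differed by -0.06 (standard error 0.07, interval -0.23 to 0.11, limma adjusted p 0.943, exact two-sided permutation p 0.1, the smallest possible). Without knockout replicate 3 the difference was -0.02. The interval corresponds to 85.2% to 108% of the wild-type signal, the narrowest of the 6 genes.

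Cacna2d2, mutated in the epileptic and ataxic ducky mouse, was the least precisely measured. Its signals were 6.10, 6.74 and 6.52 in wild type and 6.58, 6.42 and 6.47 in knockout. Wild-type replicates 1 and 2 were the lowest and the highest of all 6 arrays and enclosed the knockout group. The means of 6.46 ± 0.33 and 6.49 ± 0.08 differed by 0.04 (standard error 0.16, interval -0.33 to 0.40, limma adjusted p 0.987). The sign rested on single arrays, at -0.14 without wild-type replicate 1, 0.18 without wild-type replicate 2 and -0.0075 without knockout replicate 1. The interval allows a knockout signal from 79.7% to 132% of wild type.

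Cacna2d3, an alpha-2-delta gene of brain whose product is not a high-affinity gabapentin target, had signals of 8.49, 8.20 and 8.44 in wild type and 8.40, 8.48 and 8.50 in knockout. Wild-type replicate 2 was the lowest of the 6 arrays, and the other two wild-type arrays lay within the knockout range. The means of 8.38 ± 0.15 and 8.46 ± 0.05 differed by 0.08 (standard error 0.10, interval -0.14 to 0.31, limma adjusted p 0.942). Without wild-type replicate 2 the difference was -0.0045.

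**Figure D3:**
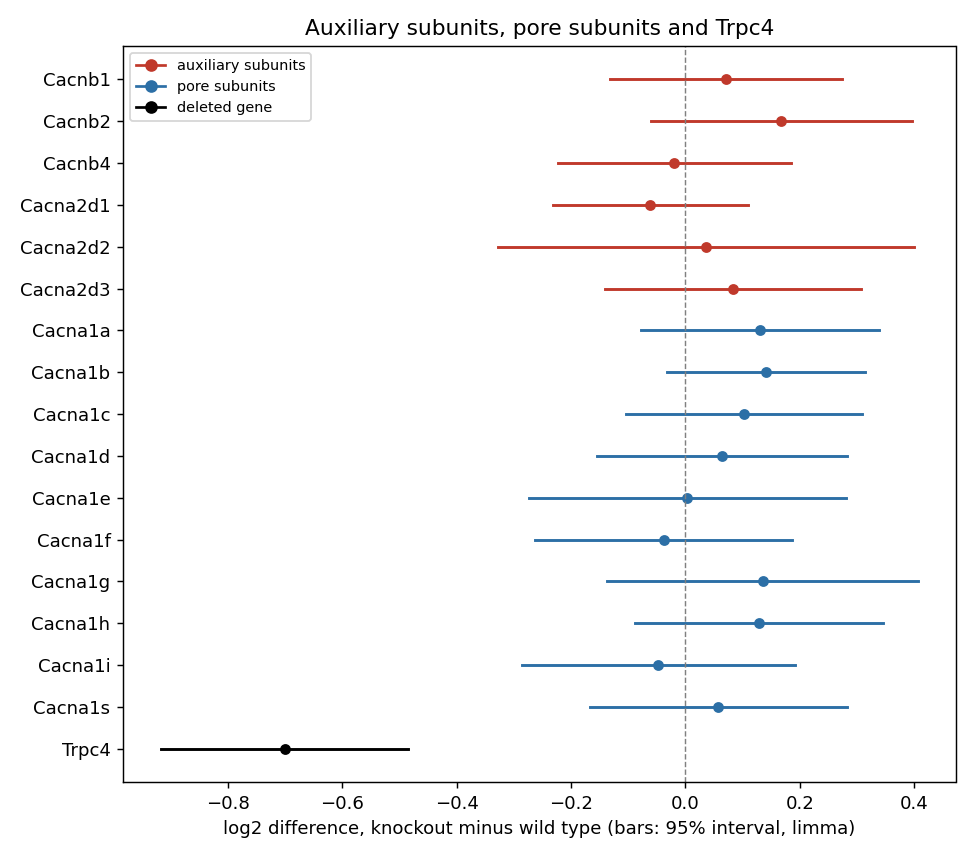
Log2 difference (knockout minus wild type) with its 95% interval from the limma fit for the 6 auxiliary subunit genes, 10 pore subunit genes and Trpc4. The intervals of all auxiliary and pore subunit genes shown cover 0, and the Trpc4 interval runs from -0.92 to -0.48.

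No array was high or low for all 6 genes. Wild-type replicate 3 was the lowest array for Cacnb1 and Cacnb2 and the highest for Cacnb4. Wild-type replicate 2 was the highest for Cacna2d2 and the lowest for Cacna2d3 and Cacnb4. Knockout replicate 3 was the highest for Cacnb2 and Cacna2d3 and the lowest for Cacna2d1. The wild-type range was wider than the knockout range for 5 of the 6 genes, Cacna2d1 being the exception, whereas over all genes this held for 50.6%.

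**Figure D4:**
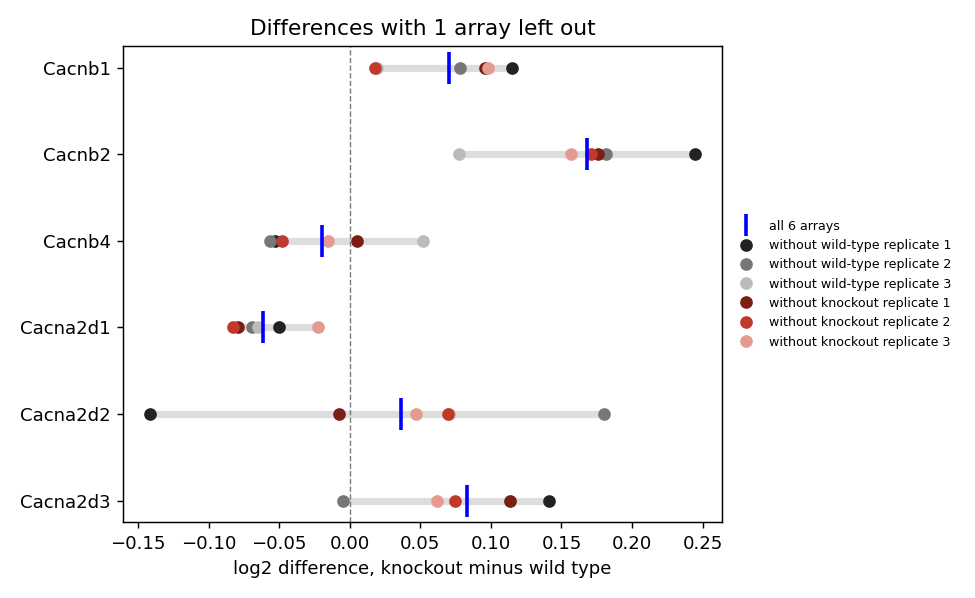
Log2 difference of each auxiliary subunit gene with all 6 arrays (blue bar) and with each array left out in turn (points, grey to black for wild-type arrays and red for knockout arrays). The points of Cacnb4, Cacna2d2 and Cacna2d3 lie on both sides of 0, while those of Cacnb1 and Cacnb2 stay above 0 and those of Cacna2d1 below it.

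The gene most like each subunit gene was the one with the highest Pearson's r over the 6 arrays, among 12919 other genes with signals above the median. This was the small nucleolar RNA gene Snora44 for Cacnb1 (r = 0.996), the proton pump accessory gene Atp6ap1 for Cacnb2 (r = 0.998) and Lgi2 for Cacnb4 (r = 0.993). It was the lysosomal protease gene Ctsa for Cacna2d1 (r = 0.987), Siah3 for Cacna2d2 (r = 0.991) and Dcaf12 for Cacna2d3 (r = 0.990). With so few arrays such values are common, and between 76 (Cacnb4) and 210 (Cacnb2) genes had an r above 0.9. The 6 genes differed by -0.11 to 0.11 between genotypes, and none was an auxiliary or pore subunit gene.

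The pore subunit genes were all measured, among them those of T-type channels, which can work without the auxiliary subunits. Mean signals of 8 of the 10 lay above the median of all probe sets. Of 10 genes, 8 had higher means in knockout and 2 lower, around a median difference of 0.08. By limma, 0 passed at an adjusted or an unadjusted p of 0.05. Cacna1b, the pore of N-type channels of presynaptic terminals, had signals of 8.42, 8.36 and 8.38 in wild type and 8.59, 8.54 and 8.45 in knockout, a difference of 0.14 (interval -0.03 to 0.31, limma adjusted p 0.874). Its groups did not overlap, which held for 1 of the 10 pore genes and for 10.9% of all genes. Cacna1a, of P/Q-type channels, differed by 0.13 (interval -0.08 to 0.34), and Cacna1h, of T-type channels, by 0.13 (interval -0.09 to 0.35). Whether auxiliary and pore subunit genes differ in their medians was not tested.

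The other auxiliary subunit genes are Cacna2d4 and the gamma subunit genes, most of which are better known in brain as partners of AMPA receptors. The 9 measured genes split into 4 with higher and 5 with lower knockout means (median -0.0077). Again 0 passed in limma, adjusted or unadjusted. Cacng5 had signals of 6.23, 6.15 and 6.14 in wild type and 5.75, 5.98 and 6.15 in knockout. Knockout replicate 3 lay among the wild-type arrays, and the difference was -0.21 (interval -0.47 to 0.04, limma adjusted p 0.868). Cacng3 differed by -0.09 (interval -0.29 to 0.10). Cacna2d4, known from photoreceptors, differed by -0.11 (interval -0.35 to 0.13) at a dim signal of 4.03 on average.

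Proteins that bind beta subunits or the channels they belong to include the RGK GTPases, which silence channels, and the RIM scaffolds of the active zone. Of 12 genes in this list 11 were measured, and knockout means were above wild type for 8 of them and below for 3 (median 0.04). In limma 0 passed, adjusted or unadjusted. The RGK GTPase gene Gem differed by 0.17 (interval -0.10 to 0.44), the adaptor gene Stac2 by 0.17 (interval -0.16 to 0.50) and the active zone gene Rimbp2 by 0.08 (interval -0.11 to 0.27). All 3 intervals cover 0. Without knockout replicate 1 Stac2 differed by 0.048 and without knockout replicate 3 by 0.33, while Gem differed by 0.28 when knockout replicate 2 was left out and by 0.11 when wild-type replicate 2 was.

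Extracellular and membrane partners reported for alpha-2-delta subunits include thrombospondins, neurexins and Lrp1. Of 10 genes in this list 8 were measured, and knockout means were above wild type for 4 and below for 4 (median 0.04). None passed the adjusted threshold of limma, and 2, where 5.75% of all genes did, had an unadjusted p under 0.05, both thrombospondin genes and both higher in knockout. Thbs3 had signals of 5.83, 5.26 and 5.45 in wild type and 5.97, 5.97 and 5.89 in knockout, a difference of 0.43 (interval 0.10 to 0.75, limma adjusted p 0.849, unadjusted 0.0164). Thbs1, a matrix protein that astrocytes release among other cells, had signals of 4.08, 4.27 and 4.22 in wild type and 4.39, 4.62 and 4.43 in knockout, a difference of 0.29 (interval 0.07 to 0.51, limma adjusted p 0.849, unadjusted 0.0152). With single arrays left out Thbs3 differed by 0.30 to 0.58 and Thbs1 by 0.22 to 0.34. The knockout values of both lay above all wild-type values, and Thbs1 was dimmer than the median probe set. Of the 8 genes, 3 had groups that did not overlap, where 10.9% of all genes had such groups. The remaining one was Nrxn3, lower in knockout, at -0.05 (interval -0.21 to 0.11). The other measured genes of this family did not pass, with Thbs2 at -0.13 (interval -0.53 to 0.28), Thbs4 at -0.12 (interval -0.50 to 0.26) and Comp, which is also a thrombospondin, at -0.02 (interval -0.35 to 0.32). Nrxn2, a presynaptic adhesion gene, differed by 0.15 (interval -0.06 to 0.35), and by 0.060 with the mean of all its probe sets.

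Markers of the labelled tissue and of other tissues were set against the median of all probe sets. Besides a given subunit gene, 12919 of the 22180 genes measured had means above it. A count above it therefore does not by itself identify a tissue. All 11 markers of hippocampal neurons had signals above the median of all probe sets, among them Slc17a7 (10.83 over all arrays) and Wfs1 (8.89), and so had all 10 of interneurons (Sst 10.77, Cck 10.35). Of markers of other tissues, 2 of 6 for skeletal muscle (Acta1 5.81, Tnnt3 4.96) and 2 of 5 for cerebellum (Calb1 8.95, Zic1 6.14) did so, where Calb1 is also expressed in hippocampal neurons, together with 5 of 6 for thalamus and striatum (Rora 6.64, Prkcd 6.55) and 3 of 7 for choroid plexus (Kl 6.82, Ttr 6.51). Knockout means were higher for 8 of 11 hippocampal neuron markers (median 0.12) and lower for 9 of 10 interneuron markers (median -0.08). Lower means were also found for 4 of 8 astrocyte genes, 5 of 7 microglia genes, 7 of 8 vascular genes, 6 of 7 choroid plexus, 3 of 6 thalamus and striatum, 3 of 5 cerebellum and 1 of 6 muscle genes. Of those glial and vascular lists, the genes of highest signal were Aldoc and Slc1a3 (astrocytes), Ctss and Csf1r (microglia), and Rgs5 and Slc2a1 (vessels). Zic1 differed by -0.96 (interval -1.65 to -0.27, limma p 0.0125 unadjusted, adjusted p 0.849), with all knockout arrays below all wild-type arrays. Differences of the other measured cerebellum markers were smaller, with Calb1 and Cbln1 at -0.012, Cbln3 at 0.019 and Gabra6 at 0.14. Their intervals all cover 0. Cbln1 (4.65), Cbln3 (4.56) and Gabra6 (2.36) were dimmer than the median of all probe sets.

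Markers of oligodendrocytes, among them Mobp and Cldn11, had lower knockout means for all 9 measured genes, with a median of -0.44, and 8 of the 9 had knockout arrays all below the wild-type arrays (4.45% of all genes). In limma all 9 had an unadjusted p under 0.05 (5.75% of all genes) and 0 passed the adjusted threshold. The log2 of their summed signal was 11.80 to 11.90 in wild type and 11.48, 11.20 and 11.74 in knockout replicates 1 to 3. The sum for hippocampal neuron markers, which weighs genes of high signal most, was 11.95 to 12.03 in wild type and 12.06 to 12.11 in knockout. Their mean deviation, in which genes weigh alike, overlapped between the groups, at -0.10 to 0.03 in wild type and -0.0022 to 0.06 in knockout. Members of that list went both ways. Of its 11 genes, 5 had groups that did not overlap (10.9% of all genes), 3 higher in knockout and 2 lower. The lower ones were Wfs1 (-0.25) and Iyd (-0.36), and the higher ones Fibcd1 (0.18), Cpne4 (0.19) and Slc17a7 (0.15). The largest rises of the list, C1ql2 (0.28) and Spink8 (0.27), had groups that overlapped. In limma 5 of the 11 genes had an unadjusted p under 0.05 (5.75% of all genes), 3 higher in knockout and 2 lower. Again 0 passed the adjusted threshold. In tissue RNA, fewer cells of a type and less RNA per cell cannot be told apart. The part of cell makeup in the values of the auxiliary subunit genes was not tested.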

How the data were processed

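Total RNA of hippocampus was extracted with Trizol and labelled with biotin, per the labels' protocols. The values are log2 expression per probe set as deposited, which the submitters' processing notes credit to RMA and Affymetrix Power Tools. No version or genome build is given in the sources used here. RMA normalises the arrays together, so a shift of most genes in common would be removed. Probes differ in response, so levels of different genes are not compared as amounts of RNA. Signal was used to pick probe sets and which markers to name, to sum markers, and to place genes above or below the median of all probe sets. That median also limited the search for similar genes and set the dim probe sets left out in an alternative. The number of arrays limits the precision, with a median standard error of 0.0997 for a log2 difference.

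Of 41345 probe sets, 23521 named 1 gene, 1814 several and 16010 none in the platform annotation, which can be old. Of 22180 genes, 21994 were matched to RefSeq by gene number. Limma 3.58.1 (R 4.3.3) gave knockout minus wild type, fitting genotype alone and adjusting p-values over all genes by Benjamini-Hochberg at 0.05. The fit was also run on simulated data, with independent genes and added shifts larger than the difference of any subunit gene. That run does not bear on shifts as small as those of the subunit genes. Figures used matplotlib 3.10.9 (Python 3.11.15).

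The genes and lists were chosen with earlier results of these data known. Named genes were the subunit genes, Trpc4, up to 3 genes of smallest p in each list of channel partners with any at an unadjusted p under 0.05, the most similar gene, and the 2 markers of highest signal for each cell type. Thbs2, Thbs4, Comp, Nrxn3, Iyd, Fibcd1, Cpne4, C1ql2, Spink8, Gabra6, Cbln1, Cbln3 and Rps13 were chosen after their values were seen. Alternatives covered the normalization (quantile, median centring), the model (replicate block, array weights, trended robust variance), the probe sets (no dim ones, or the mean per gene) and each sample left out.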

Additional observations from a re-analysis of the deposited data

How the results depend on the processing

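No auxiliary subunit gene was called under any of the 13 alternatives run. Of 78 differences recomputed for the 6 genes, 73 kept their sign, and the lowest adjusted p was 0.755. The 5 turned signs all came from leaving out 1 array, where Cacnb4 ranged from -0.056 to 0.052, Cacna2d2 from -0.14 to 0.18 and Cacna2d3 from -0.0045 to 0.14. The number of subunit genes with higher knockout means was 3 to 5 without single arrays and 4 in all other settings. Their median difference, 0.054 with all arrays, was 0.026 with the mean of all probe sets of a gene and 0.032 to 0.061 without single arrays, lowest without wild-type replicate 1. With a replicate block 0 genes were called and the median was 0.054, which a block cannot move in this balanced design. Deviations from the group means correlated at 0.067, 0.035 and -0.0038 between same-numbered samples 1, 2 and 3 of the groups. Between differently numbered samples they correlated at -0.061 to 0.027. The labels do not say whether same-numbered samples are related, and these values cannot tell. Over all genes, Trpc4 became the 1 called gene when the variance prior was trended and robust (adjusted p 0.0378), and 0 to 1 without single arrays, where Rps13 was called without knockout replicate 1 (adjusted p 0.00897). Among channel and partner genes, leaving out 1 array brought Cacna1a to 0.082 and Cacna1h to 0.067 (both wild-type replicate 2), Cacng5 to -0.11 and Rimbp2 to 0.035 (both knockout replicate 1), Cacng3 to -0.027 (wild-type replicate 3), and Cacna2d4 to -0.017 and Nrxn2 to 0.082 (both knockout replicate 2). Signs of some other named genes turned too. Aldoc stood at -0.021 with quantile normalization, at -0.0012 with median centring and between -0.021 and 0.038 without single arrays. Without single arrays Slc1a3 ranged from -0.016 to 0.059, Csf1r from -0.016 to 0.20, Rgs5 from -0.13 to 0.064, Kl from -0.074 to 0.00058 and Rora from -0.070 to 0.011. Calb1 ranged from -0.11 to 0.053, Tnnt3 from -0.036 to 0.18, Lgi2 from -0.12 to 0.12 and Siah3 from -0.060 to 0.11. The cause was not tested. Raw scans were not analysed here, so signal was not set against background.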
